A study of Mus musculus with 24 samples.

Results

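Dkk3 and 9 other antagonists of Wnt signaling were followed across cultured mammary tumor cells and tumors of the D2 series. The members, chosen by name, were Dkk1, Dkk2, Dkk3, Sfrp1, Sfrp2, Sfrp4, Wif1, Kremen1, Nkd1 and Nkd2, and their rows were found by Ensembl identifier. These 10 genes, all of them protein coding, stand among 55288 identifiers listed in the cell or the tumor count table, and both tables list the 10.

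Wnt ligands bind a Frizzled receptor together with the co-receptor Lrp5 or Lrp6, which stabilizes beta-catenin and switches on target genes such as Axin2. Secreted antagonists act outside the cell: the SFRP proteins and WIF1 bind the ligands themselves, whereas DKK1 and DKK2 bind the Lrp co-receptors. DKK3 is the divergent member of the Dickkopf family and does not act on Lrp6 in the way DKK1 does. Kremen1 is a transmembrane receptor for Dickkopf proteins, and Nkd1 and Nkd2 are intracellular proteins that bind Dishevelled, so these 3 members are antagonists of the pathway but are not secreted.

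D2A1 and D2.1 are mouse mammary tumor lines, both derived from hyperplastic alveolar nodules called D2 in BALB/c mice. D2A1 grows rapidly and D2.1 is the dormancy-competent line. RNA-seq covered 3 cultures of each line, 4 tumors of each line from BALB/c mice and 5 tumors of each line from SCID-beige mice. Tumors were grown in the mammary fat pad of females, and the females used for tumor studies were 8 to 12 weeks of age. Tumors were collected at about 500 mm3, so the lines were matched on size and not on time in the host. As the lines grow at different rates, line and time in the host cannot be told apart. BALB/c hosts are immunocompetent, and SCID-beige hosts carry Prkdc scid and Lyst bg and so lack T and B cells and have defective NK cells. Tumor RNA came from whole individual tumors and therefore includes host stroma. In such bulk samples, fewer cells of a type and less RNA per cell cannot be told apart. Nothing in the labels says that the 3 cultures of a line were grown apart, so p-values there cover the spread between these libraries, which may be technical.

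Library totals were 16837260 to 24818234 counts in culture and 13566949 to 18355153 in tumors, so that a floor of 3 counts corresponds to at most 0.221 CPM (counts scaled to a fixed library total). The summed level of 8 mammary epithelial markers was 2359 to 4670.4 CPM in cultured D2.1, 132 to 342 CPM in cultured D2A1 and 554 to 1549 CPM in tumors. Of the BALB/c D2.1 tumors, replicate 1 held 496 CPM of milk protein transcripts, and replicates 1 and 4 held 51.1 and 166 CPM of skin keratinocyte transcripts, against at most 6.53 CPM of either list in any other tumor. All levels below are such CPM scaled by TMM within each table, and culture and tumor were never tested against each other because the tables were deposited and normalized apart.

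Promoter sequences from RefSeq (GRCm38.p6) were at hand for 6 of the 10 members. The RefSeq start lies inside the gene as GENCODE M21 draws it for Dkk1, Wif1 and Nkd1, whose windows are not shown. The 250 bases before the start of Sfrp2, Dkk2 and Nkd2 are shown because these members gave, respectively, one of the largest excesses in D2.1, counts in every tumor but in no culture, and the clearest excess in D2A1. Each runs 5′ to 3′ on the strand of the gene. Capitals mark every CTTTG, the core of the TCF/LEF motif through which beta-catenin acts, and every TATAAA, searched on both strands, where the reverse forms read CAAAG and TTTATA.
Sfrp2, chr3:83766071-83766320, plus strand: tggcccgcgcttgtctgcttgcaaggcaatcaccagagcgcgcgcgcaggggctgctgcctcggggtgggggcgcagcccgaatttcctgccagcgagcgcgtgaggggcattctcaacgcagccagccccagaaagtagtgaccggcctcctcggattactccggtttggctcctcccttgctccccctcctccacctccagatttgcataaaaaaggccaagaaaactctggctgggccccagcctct
Dkk2, chr3:132085042-132085291, plus strand: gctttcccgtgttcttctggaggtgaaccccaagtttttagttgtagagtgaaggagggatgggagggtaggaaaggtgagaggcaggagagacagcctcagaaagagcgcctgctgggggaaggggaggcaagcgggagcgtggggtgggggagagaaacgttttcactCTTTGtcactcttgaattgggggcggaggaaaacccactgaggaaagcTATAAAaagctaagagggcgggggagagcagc
Nkd2, chr13:73847632-73847881, minus strand: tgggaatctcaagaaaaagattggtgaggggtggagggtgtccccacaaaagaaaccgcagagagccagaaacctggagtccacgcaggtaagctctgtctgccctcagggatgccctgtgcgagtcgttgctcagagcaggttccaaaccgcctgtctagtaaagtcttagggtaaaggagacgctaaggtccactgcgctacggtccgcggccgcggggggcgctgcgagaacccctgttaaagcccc
The Dkk2 window held 1 CTTTG and 1 TATAAA, and the Sfrp2 and Nkd2 windows held neither. Among 32851 promoters searched in the same way, 48.6% held CTTTG and 12.4% held TATAAA, so a match to CTTTG is common. CpG pairs numbered 16 in the Sfrp2 window, 7 in Dkk2 and 14 in Nkd2, beside a median of 6 over all promoters. These are descriptions of letters in a window and say nothing of binding.

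Between the lines, Dkk3 and Sfrp2 stood out: both were higher in D2.1 than in D2A1 in culture and in tumors of both hosts, at fitted folds of 20 to 37.1 in the tumors. Kremen1 was also higher in D2.1 in the 3 settings, by 1.48 to 3.26-fold, although the smallest of these was near the threshold and missed it when some single libraries were left out. Nkd2 ran the other way, and was lower in D2.1 in culture and in SCID-beige tumors. Changed genes were called at a Benjamini-Hochberg adjusted p under 0.05 in edgeR's quasi-likelihood test over all genes. In culture, 4 of the 10 members passed the filter on low counts and all 4 were called, 3 higher and 1 lower in D2.1, where 44.9% of the 12489 genes tested were called (24.2% higher and 20.7% lower). In BALB/c tumors 4 of 9 tested members were called, all of them higher in D2.1, against 32.6% of 14953 genes (16.8% higher and 15.8% lower). In SCID-beige tumors 4 of 9 were called, 3 higher and 1 lower, against 32.1% of 14355 genes (17.2% higher and 14.8% lower). The groups did not overlap for 4 of 4 members in culture, 4 of 9 in BALB/c and 3 of 9 in SCID-beige tumors, where this held for 55.6%, 34.2% and 23.7% of all genes tested. The number of members called is thus close to the background in tumors. The median log2 fold change of the tested members, D2.1 minus D2A1, was 1.23 in BALB/c and 0.56 in SCID-beige tumors, beside -0.02 and 0.02 over all genes tested. In culture Dkk3, Sfrp2 and Nkd2 reached the level of the filter, 0.562 CPM, in 1 line only. Such a member had to differ to be tested at all, so the count in culture and the edgeR p-values of these members there are descriptions.

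**Figure D1:**
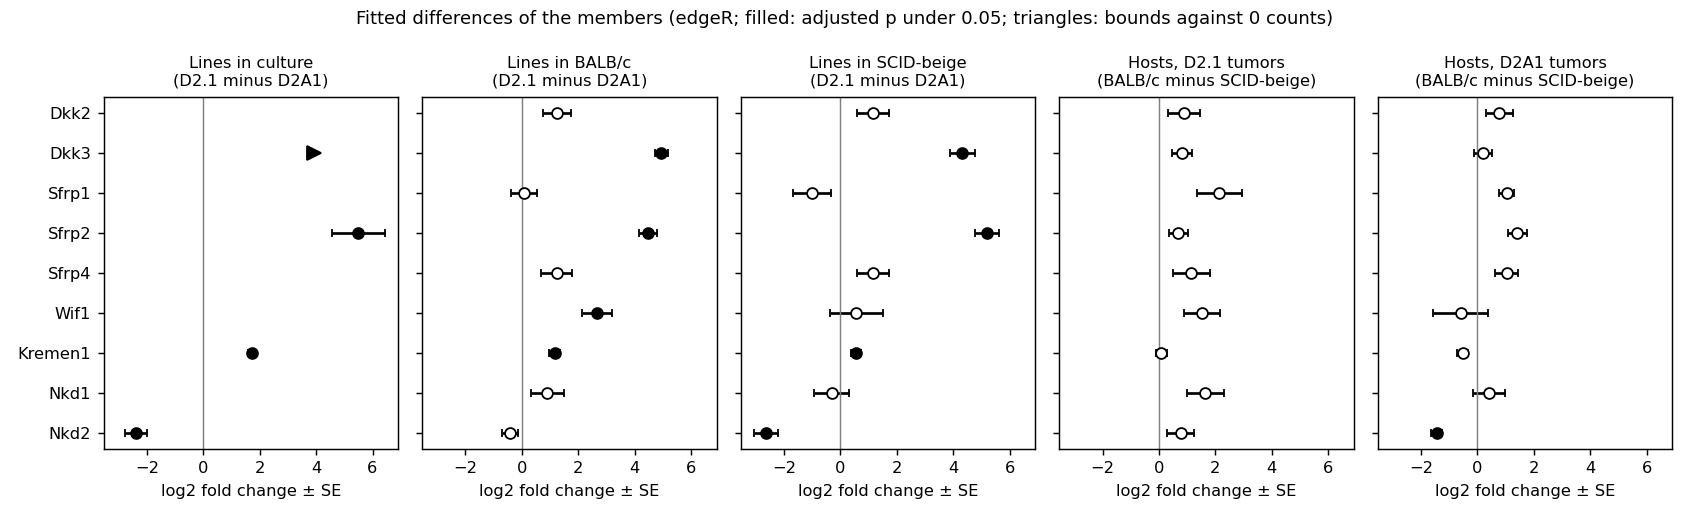
Fitted log2 fold changes of the members, with SE bars, in the 3 comparisons of lines (D2.1 minus D2A1) and the 2 comparisons of hosts (BALB/c minus SCID-beige); filled points passed an adjusted p of 0.05, the triangle for Dkk3 in culture is its lower bound of 15.3-fold against 0 counts, and members without a point did not pass the filter. Dkk3 and Sfrp2 lie at 4.32 or more in both comparisons of lines in tumors, and Nkd2 in D2A1 tumors is the 1 filled point among the comparisons of hosts.

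Dkk3 (ENSMUSG00000030772) lies on chr7:112116017-112159057, minus strand, in GRCm38. In cultured D2A1 it had 0 counts in all 3 libraries, which allows at most 3 counts per library. In cultured D2.1 it had 56, 75 and 25 counts, or 3.05, 3.32 and 1.34 CPM. Every D2.1 culture was thus above every D2A1 culture, but the level in D2.1 cells was low. Against the floor of 3 counts per library, Dkk3 was at least 15.3-fold higher in cultured D2.1 (edgeR adjusted p = 0.00059). Dkk3 passed the filter only through D2.1, so this p is a description. The exact permutation p was 0.1, the smallest possible (0.187 adjusted).

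In tumors the Dkk3 level was of another order. BALB/c D2.1 tumors held 291, 243, 251 and 265 CPM (262 ± 21.1, SD, n = 4), and BALB/c D2A1 tumors held 11.4, 5.94, 7.54 and 9.21 CPM (8.53 ± 2.34, n = 4). SCID-beige D2.1 tumors held 158.8, 214.9, 79.2, 58.8 and 245.8 CPM (151 ± 81.8, n = 5), and SCID-beige D2A1 tumors held 10.1, 4.03, 6.48, 11.6 and 5.55 CPM (7.54 ± 3.17, n = 5). The lowest D2.1 tumor was well above the highest D2A1 tumor, and the D2.1 tumors of SCID-beige mice spread far more widely than those of BALB/c mice. By edgeR the log2 fold change between lines was 4.95 ± 0.22 (SE) in BALB/c tumors, adjusted p = 4.9e-07, and 4.32 ± 0.44 in SCID-beige tumors, adjusted p = 6.8e-06. These are 30.8-fold and 20-fold differences. The order of the 6 groups ran from D2.1 tumors in BALB/c down through D2.1 tumors in SCID-beige, D2A1 tumors in BALB/c, D2A1 tumors in SCID-beige and cultured D2.1 to cultured D2A1. The ranges of the hosts overlapped widely in D2A1 and barely in D2.1, where the comparison of hosts is given further on.

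Set side by side without a test, the mean Dkk3 level in D2.1 tumors was 102 times that of cultured D2.1 in BALB/c mice and 59 times in SCID-beige mice. In D2A1, Dkk3 went from 0 counts in culture to 58 to 197 counts in each of the 9 tumors.

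Sfrp2 (ENSMUSG00000027996, chr3:83766321-83774316, plus strand), a secreted Frizzled-related protein made in abundance by many fibroblasts, followed the same groups. Cultured D2.1 had 11, 20 and 36 counts (0.598, 0.884 and 1.93 CPM) and cultured D2A1 had 0, 0 and 1. The ratio of CPM over pooled counts was 55 with a 95% exact interval for counting error alone of 9.53 to 2203. Sfrp2 too passed the filter only through D2.1, so the edgeR adjusted p = 0.0016 is a description. The exact permutation p was 0.1, the smallest possible (0.187 adjusted). The value fitted by edgeR, 5.50 ± 0.94 on the log2 scale, became 7.43 without D2A1 replicate 3, which holds the single count. Sfrp2 no longer passed the filter without D2.1 replicate 2 or 3.

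Sfrp2 in BALB/c tumors was 364, 509, 199 and 352 CPM for D2.1 and 21.4, 13.6, 17.3 and 12.3 CPM for D2A1. In SCID-beige tumors it was 216.9, 349.5, 133.1, 115.4 and 318.6 CPM for D2.1 and 5.71, 2.71, 4.32, 9.21 and 8.45 CPM for D2A1. No D2A1 tumor came near any D2.1 tumor, and replicates 3 and 4 of the SCID-beige D2.1 tumors were the lowest of their group for Sfrp2 as for Dkk3. The differences between lines were 4.47 ± 0.31 (BALB/c, edgeR adjusted p = 5.1e-06) and 5.21 ± 0.42 (SCID-beige, adjusted p = 8.6e-07) on the log2 scale, 22.1-fold and 37.1-fold. Per length, Sfrp2 was the most abundant member in D2.1 tumors, at 352 ± 124 FPKM in BALB/c mice beside 77.2 ± 7.6 FPKM for Dkk3. That value rests on a length of 995 bases used for Sfrp2 in the tumor table, whereas its exons together span 2153 bases. An antisense gene, Gm26771, overlaps Sfrp2 and whether counting used strand is not given in the sources used here, but Gm26771 had at most 12 counts in any library.

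**Figure D2:**
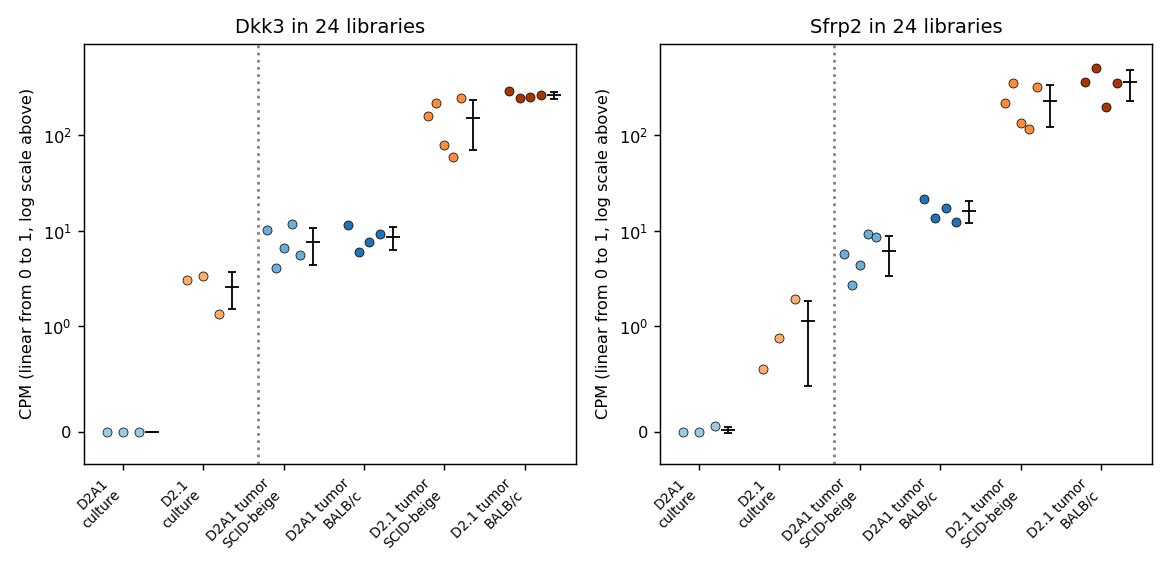
CPM of Dkk3 (left) and Sfrp2 (right) in each of the 24 libraries by group, with the axis linear from 0 to 1 and logarithmic above; black bars are mean ± SD and the dotted line separates the culture table from the tumor table. In both panels the D2.1 tumors, at 58.8 CPM or more, lie above every D2A1 tumor, none of which passes 21.4 CPM.

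The other Dickkopf genes had no counts or few. Dkk1 (chr19:30545863-30549665), the prototype inhibitor of the Lrp co-receptors, had 0 counts in all 24 libraries, which allows at most 0.221 CPM in any of them. Dkk2 (chr3:132085292-132180304) had 0 counts in the 6 cultures and was counted in all 18 tumors at 0.185 to 8.30 CPM. The group means of Dkk2 were 3.91 ± 2.99 CPM in BALB/c and 2.14 ± 1.11 in SCID-beige D2.1 tumors, and 1.65 ± 0.344 and 0.963 ± 0.48 in the D2A1 tumors. All neighbouring groups overlapped. Its difference between lines was 1.25 ± 0.51 in BALB/c (edgeR adjusted p = 0.085) and 1.15 ± 0.56 in SCID-beige tumors (adjusted p = 0.14), past the threshold in neither. In BALB/c tumors it passed without D2.1 replicate 4 (adjusted p = 0.0398) or by DESeq2 (adjusted p = 0.0461), but was 0.57 (adjusted p = 0.341) without D2.1 replicate 1, which held the highest level.

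Sfrp1, Sfrp4 and Wif1, the remaining secreted members, bind Wnt ligands and also had few counts outside tumors. In culture the highest count of any of them was 4, and their exact 2-sided permutation p between lines was 0.4 for Sfrp1, 0.4 for Wif1 and 1 for Sfrp4 (0.478, 0.478 and 1 after Benjamini-Hochberg adjustment over the 43 such tests made), in a design whose smallest p is 0.1. Sfrp1 (chr8:23411502-23449632) did not separate the lines. It was 21.1, 3.25, 8.81 and 11.9 CPM in BALB/c D2.1 tumors and 13.8, 7.98, 10.7 and 10.9 CPM in BALB/c D2A1 tumors. In SCID-beige tumors Sfrp1 was 2.39, 1.99, 0, 4 and 4.72 CPM for D2.1 and 8.39, 4.30, 4.25, 5.13 and 4.41 CPM for D2A1. The difference between lines was 0.06 ± 0.46 in BALB/c (edgeR adjusted p = 0.93) and -1.02 ± 0.67 in SCID-beige tumors (adjusted p = 0.27). The first of these turned negative without BALB/c D2.1 replicate 1 (-0.44), without D2A1 replicate 2 (-0.07) and with the replicate number as a block (-0.17).

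Sfrp4 (chr13:19623104-19632994) was 14.2, 1.51, 6.03 and 5.13 CPM in BALB/c D2.1 tumors beside 2.17 to 3.83 CPM in D2A1. The high value again belonged to replicate 1. In SCID-beige tumors it was 0.645 to 6.55 CPM for D2.1 and 0.625 to 2.72 CPM for D2A1. The differences between lines, 1.23 ± 0.55 and 1.15 ± 0.57, did not pass in edgeR (adjusted p = 0.12 and 0.15). Without D2.1 replicate 2, the lowest of its group, the BALB/c value was 1.55 with adjusted p = 0.0142, and without replicates 1 and 4 it was 0.36 with adjusted p = 0.691.

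Wif1 (chr10:121033960-121100650) was called in BALB/c tumors alone. There it was 4.55, 3.43, 1.39 and 3.66 CPM in D2.1 and 0.348, 0.248, 0.724 and 0.721 CPM in D2A1, groups that did not overlap, and the difference was 2.66 ± 0.53 (6.33-fold, edgeR adjusted p = 0.0033). Only 2 of the 4 D2A1 tumors reached the level of the filter there, 0.593 CPM. In SCID-beige tumors Wif1 was 2.70, 0.88, 0.115, 1.01 and 1.07 CPM in D2.1 and 0.0688, 0, 1.32, 2.29 and 0.189 CPM in D2A1. The groups were interleaved, with a difference of 0.56 ± 0.94 (adjusted p = 0.69). Whether the difference between lines itself depended on the host was tested by the interaction, which was 2.09 ± 1.25 for Wif1 (edgeR adjusted p = 0.71).

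Kremen1 (chr11:5191552-5261558), the Dickkopf receptor, was the one member with high counts in every library. Cultured D2.1 held 139, 157 and 182 CPM and cultured D2A1 46.9, 47.1 and 52.5 CPM, a difference of 1.71 ± 0.14 (3.26-fold, edgeR adjusted p = 1.9e-05). BALB/c tumors held 276 ± 63.8 CPM for D2.1 and 124 ± 23.9 CPM for D2A1, which in FPKM were 80, 84, 54 and 53.7 for D2.1 and 40.5, 34.6, 24.1 and 28.9 for D2A1, groups again apart, with a difference of 1.16 ± 0.20 (adjusted p = 0.0016). In SCID-beige tumors the ranges met, at 194 to 326 CPM for D2.1 and 135 to 234 CPM for D2A1. The difference there was 0.56 ± 0.18 (edgeR adjusted p = 0.029), and it missed the threshold when any one of 7 libraries was left out: replicates 1, 2, 4 or 5 of D2.1 or replicates 1, 2 or 3 of D2A1, with adjusted p from 0.0584 to 0.101. Kremen1 was also the member whose level moved least from culture to tumor, with tumor means 1.66 to 3.68 times those of the same line in culture.

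Of the Naked cuticle pair, Nkd1 (chr8:88521354-88594884) had 0 counts in culture and 0.115 to 3.96 CPM in tumors. All neighbouring tumor groups overlapped for Nkd1, and its differences between lines were 0.90 ± 0.58 in BALB/c and -0.31 ± 0.63 in SCID-beige tumors (edgeR adjusted p = 0.27 and 0.75). Nkd2 (chr13:73818534-73847631, minus strand) was far more abundant. In culture it was 0.272, 0.398 and 0.321 CPM in D2.1 and 2.36, 1.30 and 1.65 CPM in D2A1, from 5 to 9 and 23 to 41 counts. D2.1 was the lower line by 5.23-fold (log2 difference -2.39 ± 0.40, edgeR adjusted p = 0.0015). Nkd2 passed the filter there only through D2A1, so this p is a description. The exact permutation p was 0.1, the smallest possible (0.187 adjusted).

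In SCID-beige tumors Nkd2 was 43.4, 27.9, 4.14, 22.5 and 35.4 CPM for D2.1 and 178, 141, 187, 191 and 132 CPM for D2A1. The highest D2.1 tumor did not reach the lowest D2A1 tumor, and replicate 3, the lowest, was also the D2.1 tumor of this host with the lowest Sfrp1, Wif1, Nkd1, Dkk2 and Kremen1. The difference was -2.64 ± 0.42 (6.23-fold lower in D2.1, edgeR adjusted p = 0.00035). In BALB/c tumors Nkd2 was 51.9, 56.7, 22.5 and 49.1 CPM for D2.1 and 65.8, 71.5, 65.1 and 40.8 CPM for D2A1. These groups overlapped, and the difference of -0.43 ± 0.29 was not called (adjusted p = 0.29).

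**Figure D3:**
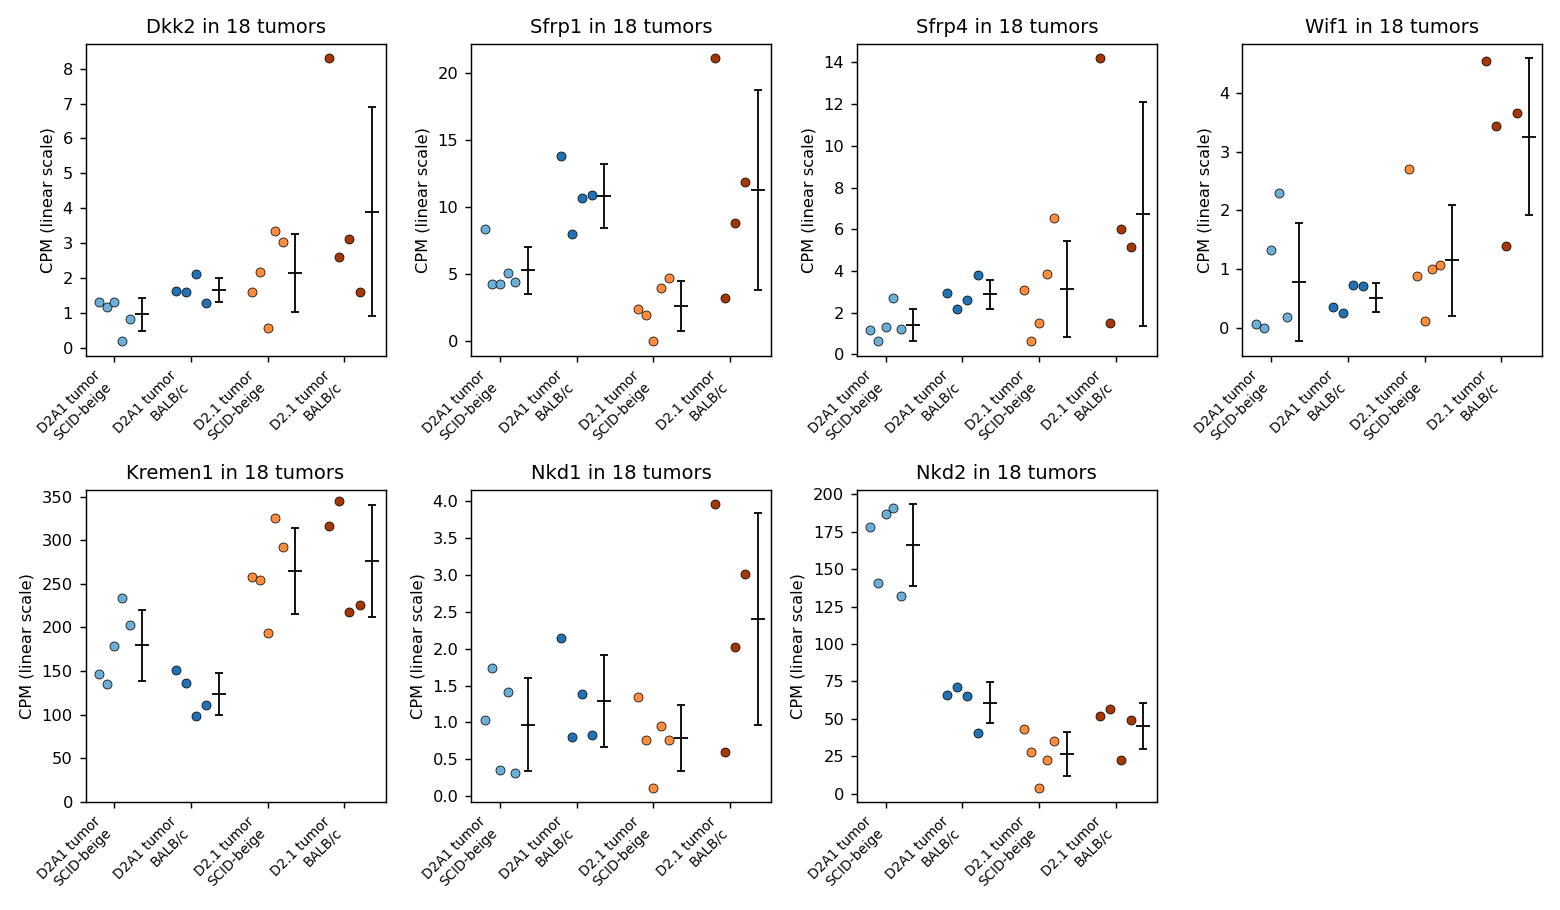
CPM, on linear axes, of the 7 members other than Dkk1, Dkk3 and Sfrp2 in the 18 tumors by group, with black bars for mean ± SD. Nkd2 is highest in D2A1 tumors of SCID-beige mice, at 132 to 191 CPM, and single high BALB/c D2.1 tumors widen the bars of Dkk2, Sfrp1 and Sfrp4.

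Between hosts, a single member was called, in D2A1 tumors. The question here was whether growth in an immunocompetent mouse goes with other levels of these antagonists than growth in a SCID-beige mouse. Among D2.1 tumors 0 of 9 tested members were called by edgeR, where 0.891% of 14929 genes were called. At an unadjusted p under 0.05 there were 4 of them (Dkk3, Sfrp1, Wif1 and Nkd1), each higher in BALB/c mice, where 9.97% of all genes were at such a p and 7.16% were so and higher in BALB/c mice. DESeq2 called 0 members and 3.09% of all genes. For Dkk3 the difference was 0.83 ± 0.35 (1.77-fold, unadjusted p = 0.035, adjusted p = 0.42). The lowest BALB/c tumor, at 243 CPM, lay just under the highest SCID-beige tumor at 245.8 CPM. With the scaling of these 9 tumors alone the hosts did not overlap for Dkk3, the 1 member of 9 of which this was true, beside 4.35% of all genes tested. The exact 2-sided permutation p was 0.0317, or 0.105 adjusted over the 43 such tests, where the smallest possible is 0.0159. The Dkk3 difference was 0.38 ± 0.18 (adjusted p = 0.746) when SCID-beige replicates 3 and 4 were both left out, a choice made after seeing the data. For Sfrp2 it was 0.68 ± 0.34 (adjusted p = 0.55). T cell markers did differ between these hosts: the summed level of 8 T cell genes was 69.8 to 186 CPM in BALB/c and 5.54 to 14.7 CPM in SCID-beige D2.1 tumors. Their part in the values of the members was not tested.

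Among D2A1 tumors 1 of 9 members was called, where 1.17% of 14572 genes were called and 0.261% were called lower in BALB/c mice. Nkd2 was lower in BALB/c than in SCID-beige mice by 2.73-fold (log2 difference -1.45 ± 0.19, edgeR adjusted p = 0.0097), and no tumor of one host overlapped those of the other, as for 2 of 9 members (Nkd2 and Sfrp2) and 5.37% of all genes tested. Leaving out any single library kept that call, but one fit of all 18 tumors gave adjusted p = 0.104 for the same difference. Sfrp2 lay the other way, at 12.3 to 21.4 CPM in BALB/c and 2.71 to 9.21 CPM in SCID-beige D2A1 tumors. That difference of 1.41 ± 0.33 missed the threshold (adjusted p = 0.074), passed it in DESeq2 (adjusted p = 0.00299) and also passed with no filter on low counts (adjusted p = 0.0215). Sfrp1, at 1.04 ± 0.26 (adjusted p = 0.094), was called by DESeq2 as well (adjusted p = 0.0103), which called 3.9% of all genes in this comparison. Dkk3 differed by 0.18 ± 0.32 (adjusted p = 0.94).

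The interaction of line and host asks whether the difference between hosts is the same in both lines. By edgeR 0 of 9 members were called, where 0.0187% of 16036 genes were called, with 2 at an unadjusted p under 0.05, as were 8.45% of all genes. For Nkd2 the interaction was 2.20 ± 0.57 (unadjusted p = 0.001, adjusted p = 0.24). DESeq2 called it as the 1 member (adjusted p = 0.0164), beside 0.655% of all genes. The mean Nkd2 level was 45 CPM in BALB/c and 26.7 CPM in SCID-beige D2.1 tumors, but 60.8 CPM in BALB/c and 166 CPM in SCID-beige D2A1 tumors. For Dkk3 the interaction was 0.62 ± 0.50 (edgeR adjusted p = 0.81), so a host difference particular to D2.1 was not detectable for it with these libraries.

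Genes with a profile like that of Dkk3 were looked for over the 18 tumors, among 10862 protein-coding genes with a mean of at least 5 CPM. Likeness was the root mean square difference between centred log2 CPM values, so that a small value means nearly the same fold differences from tumor to tumor. The 5 most alike were S1pr3 (0.34), Ncam1 (0.45), Col27a1 (0.52), Sept3 (0.55) and Phactr1 (0.56), and Sfrp2 ranked 13 with 0.62. S1pr3, a sphingosine-1-phosphate receptor, was 242 ± 31.5 CPM in BALB/c and 173 ± 74.9 CPM in SCID-beige D2.1 tumors, and 7.74 ± 1.13 and 5.90 ± 1.89 CPM in the D2A1 tumors. In culture it was 8.64 ± 2.66 CPM in D2.1 and 0 in D2A1, close to the Dkk3 pattern there too. Ncam1, a neural cell adhesion molecule, shared the tumor profile but not the low level in culture, with 49.4 ± 8.81 CPM in cultured D2.1 beside 65.3 ± 10 CPM in BALB/c D2.1 tumors. The points share their libraries and their scaling, so the ranking is a description and carries no test.

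Markers of fibroblasts moved with Dkk3 and Sfrp2. The summed level of 10 fibroblast markers was 77.1 to 99.8 CPM in cultured D2A1 and 1849 to 2634 CPM in cultured D2.1. In tumors it was 1586 to 3946 CPM in D2A1 and 6351 to 16204 CPM in D2.1. Of these markers 5 of 5 tested were higher in D2.1 in culture, 9 of 10 in BALB/c tumors and 7 of 10 in SCID-beige tumors (edgeR, adjusted p under 0.05), with medians of 4.66, 2.96 and 2.87 on the log2 scale. Over all genes tested, 24.2%, 16.8% and 17.2% were called higher in D2.1 in these settings, and 20.7%, 15.8% and 14.8% lower. In culture Fap stayed under the level of the filter, 0.562 CPM, in D2A1, at 0.113 CPM or less. Col1a2 and Col3a1 were under it in the lowest D2A1 library, at 0.373 and 0 CPM. These markers did not pass on D2A1 alone, so the count in culture is a description. The markers were not uniform. Col1a1, a collagen, was already at 2061 ± 421 CPM in cultured D2.1, whereas the proteoglycans Dcn and Lum were at 0.0476 and 0.0147 CPM there and reached 317 ± 114 and 189.5 ± 137 CPM in BALB/c D2.1 tumors. Dcn was at 39.3 ± 6.67 CPM in BALB/c D2A1 tumors. Col1a2, another collagen, was at 299 to 1265 CPM in D2.1 beside 604 to 1086 CPM in D2A1 tumors of BALB/c mice, and at 18.3 to 377 beside 330.2 to 841 CPM in SCID-beige mice. Thy1 was 36.6 ± 15.2 CPM in D2.1 beside 47.9 ± 16.1 CPM in D2A1 tumors of SCID-beige mice, and 119 ± 33.4 beside 67.8 ± 16.2 CPM in BALB/c mice. Most of the sum in BALB/c D2.1 tumors, at a median of 14047 CPM, was Col1a1 and Col3a1. Their means there were 5060.2 and 6353 CPM. Endothelial markers ran the other way between the lines, with sums of 81.6 to 169 CPM in D2.1 and 268 to 359 CPM in D2A1 tumors, and T cell markers were also higher in D2.1 than in D2A1 tumors of BALB/c mice (8 of 8 called), where their sum in D2A1 was 10.1 to 27.9 CPM. The sum of 6 B cell markers was 71.3 to 333 CPM in D2.1 and 26.1 to 53 CPM in D2A1 tumors of BALB/c mice, and 22 to 70 CPM and 5.09 to 18.5 CPM in SCID-beige mice, with 3 of 3 and 2 of 2 tested genes higher in D2.1. Of 8 skeletal muscle markers 3 of 8 tested were higher in D2.1 in BALB/c and 2 of 4 in SCID-beige tumors, with sums in D2.1 of 49.8 to 388 and 1.78 to 304 CPM and in D2A1 of 8.43 to 72.9 and 3.03 to 21.7 CPM. Macrophage markers were higher for 1 of 8 and 3 of 8, pericyte and smooth muscle markers were lower for 1 of 8 and 4 of 8, and adipocyte markers were called in neither host. Mammary epithelial markers were higher in D2.1 for 3 of 8 and lower for 1 in BALB/c tumors. In SCID-beige tumors they were higher for 4 of 6 and lower for 1. In culture 5 of 5 tested were higher, although Krt14 was under the level of the filter in the lowest D2A1 library, at 0.106 CPM. The part of these cell types in the values of the members was not tested. Whether Dkk3 and Sfrp2 transcripts in tumors came from tumor cells or from host cells was not tested.

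**Figure D4:**
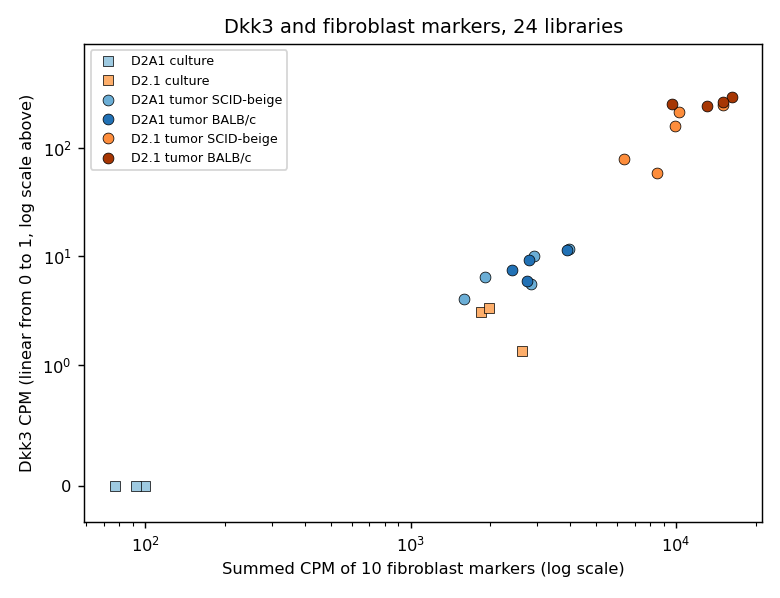
Dkk3 CPM (linear from 0 to 1, logarithmic above) against the summed CPM of 10 fibroblast markers (log axis), 1 point per library, squares for culture and circles for tumors. D2.1 tumors occupy the upper right, at 6351 CPM of markers or more, while cultured D2.1, at 1849 to 2634 CPM of markers, falls in the marker range of D2A1 tumors, 1586 to 3946 CPM, with Dkk3 at 11.6 CPM or less in both.

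Other genes of the Wnt pathway were called between the lines in both directions, to be read against the 44.9% of all genes called in culture, 32.6% in BALB/c and 32.1% in SCID-beige tumors. Target genes in BALB/c tumors, with 4 of 12 called, were at that background, and the other lists and settings were above it. Not called were 2 of 9 target genes in culture and 6 of 15 receptors in the tumors of either host. In SCID-beige tumors 4 of 11 target genes and 5 of 14 ligands were not called. The lists are short and were chosen with earlier results known, so these shares are descriptions. Among genes named below, Rnf43, Shisa2, Tmem88, Rspo3, Wnt5a and Wnt7a in culture stayed under the level of the filter in the line where they were lower. So did Shisa2 and Lef1 in BALB/c tumors. The median of the lower line was under that level for Fzd8 in culture and in SCID-beige tumors. This also held for Dkkl1 in BALB/c tumors and Bmp4 in SCID-beige tumors. Such genes had to differ to be tested, so their calls and p-values are descriptions. Of 20 other Wnt antagonists, 9 were tested in culture, with 4 higher and 2 lower in D2.1. In BALB/c tumors 4 of 11 were higher and 1 lower, and in SCID-beige tumors 2 of 8 were higher and 2 lower. The membrane-bound inhibitor Apcdd1 was higher in D2.1 by 3.36 ± 0.21 in BALB/c and 2.96 ± 0.27 in SCID-beige tumors (edgeR adjusted p = 2.4e-06 and 2.5e-06), and Cxxc5, a Dishevelled-binding protein, by 3.31 ± 0.24 and 2.74 ± 0.22 (adjusted p = 5.5e-06 and 1e-06). Shisa2, which retains Frizzled inside the cell, had 0 counts in all cultured D2A1 libraries and was at least 23.7-fold higher in cultured D2.1. In BALB/c tumors it had 258 counts over the D2.1 and 3 over the D2A1 libraries, a ratio of CPM of 82.1 with a 95% counting interval of 27.8 to 401. Against these, Rnf43, an E3 ligase that removes Frizzled from the surface, was lower in cultured D2.1, at -5.34 ± 0.39 on the log2 scale (edgeR adjusted p = 1.2e-05). That value rests on 1 to 5 counts in each cultured D2.1 library, and Rnf43 passed the filter only through D2A1. Igfbp4 was lower in SCID-beige D2.1 tumors at -2.09 ± 0.17 (edgeR adjusted p = 1.3e-06). Notum, a secreted enzyme that inactivates Wnt proteins, was lower there at -1.31 ± 0.32 (adjusted p = 0.0066). Tmem88, a membrane protein that binds Dishevelled, was higher in cultured D2.1 by 3.56 ± 0.42, and Dkkl1, a secreted protein related to Dkk3, was higher in BALB/c D2.1 tumors by 2.94 ± 0.63 (edgeR adjusted p = 0.00019 and 0.0053). The medians of this list were 0.87, 0.42 and -0.35.

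Among 19 matched target genes of beta-catenin, 6 of 9 tested were higher and 1 lower in cultured D2.1. In BALB/c tumors 3 of 12 were higher and 1 lower, and in SCID-beige tumors 3 of 11 were higher and 4 lower, with medians of 1.62, 0.30 and -0.31. Axin2, a feedback inhibitor and the usual reporter of the pathway, was 16.1 ± 5.01 CPM in cultured D2.1 and 1.34 ± 1.26 CPM in cultured D2A1 (log2 difference 3.56 ± 0.55, edgeR adjusted p = 0.00095). In tumors it was 40.6 to 64.5 CPM on average in every group, and its differences of 0.51 ± 0.20 and -0.61 ± 0.23 were not called (adjusted p = 0.068 and 0.055). The receptor kinase gene Ephb3 was higher in D2.1 in all 3 comparisons, by 2.90 ± 0.23, 2.65 ± 0.16 and 1.45 ± 0.28. Myc was lower in all 3, at -1.59 ± 0.15, -2.06 ± 0.21 and -1.39 ± 0.29 (edgeR adjusted p = 4.7e-05, 5.4e-05 and 0.0026). Tcf7, a transcription factor of the pathway, was higher in D2.1 by 2.99 ± 0.25 in culture and 0.72 ± 0.15 in BALB/c tumors, and Lef1 by 4.90 ± 0.97 in BALB/c tumors (edgeR adjusted p = 2.5e-05, 0.0042 and 0.0034). T cell markers were also higher in these BALB/c D2.1 tumors (8 of 8 called), and their part in the values of Tcf7 and Lef1 was not tested. The receptor gene Tnfrsf19 and the ligand gene Bmp4 were lower in SCID-beige D2.1 tumors, at -2.29 ± 0.44 and -2.02 ± 0.46. Rspo3, which encodes an agonist of the pathway, had 0 counts in cultured D2A1 and was at least 20.9-fold higher in cultured D2.1.

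Of 17 Wnt receptors, 8 of 15 tested were higher and 2 lower in cultured D2.1, and 7 of 15 were higher and 2 lower in the tumors of either host. Fzd8 led them at 4.96 ± 0.35 in culture, 3.51 ± 0.45 in BALB/c and 4.34 ± 0.37 in SCID-beige tumors (edgeR adjusted p = 9.8e-06, 0.00023 and 1.5e-06). In culture and in SCID-beige tumors Fzd8 passed the filter only through D2.1, so its p-values there are descriptions. Lgr6 and Lgr4, receptors of R-spondins, were higher by 2.33 ± 0.36 and 1.75 ± 0.39 in BALB/c and by 3.0 ± 0.46 and 1.72 ± 0.31 in SCID-beige tumors, and the Wnt receptor kinase gene Ryk by 1.63 ± 0.17 and 1.44 ± 0.16. In culture Fzd4 (2.71 ± 0.34), Lgr6 (2.42 ± 0.29) and Fzd3 (1.67 ± 0.18) followed Fzd8. The medians of the receptors were 0.54, 0.52 and 0.54. Among 24 ligands and secretion factors, 6 of 12 were higher and 3 lower in cultured D2.1, 5 of 14 higher and 2 lower in BALB/c, and 6 of 14 higher and 3 lower in SCID-beige tumors. The noncanonical ligand Wnt5a was higher in D2.1 by 3.17 ± 0.29 and 3.79 ± 0.46 in the tumors of the hosts in turn, and Wnt10b by 3.17 ± 0.43 and 2.76 ± 0.53. In culture these ligands differed by 5.38 ± 0.35 and 4.63 ± 0.44. Wnt9a was higher in BALB/c D2.1 tumors by 2.33 ± 0.20, and Porcn, the acyltransferase that Wnt proteins need for secretion, was lower in SCID-beige D2.1 tumors at -1.63 ± 0.25. Wnt4 was lower, at -5.01 ± 0.30 in culture, -2.43 ± 0.56 in BALB/c and -3.28 ± 0.57 in SCID-beige tumors (edgeR adjusted p = 4.5e-06, 0.0077 and 0.00067). Wnt7a had 0 counts in cultured D2.1 and was there at least 14.7-fold lower than in D2A1. The medians of the ligands were 1.04, 0.46 and -0.23.

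Between hosts, 3 genes of these 4 lists were called. Lef1, which encodes a transcription factor of the pathway that T cells also express, was higher in BALB/c than in SCID-beige D2.1 tumors by 4.13 ± 0.83 (edgeR adjusted p = 0.04), with 4.58 ± 4.01 beside 0.26 ± 0.18 CPM, the same tumors in which T cell markers were higher. No SCID-beige D2.1 tumor reached the level of the filter for Lef1, 0.582 CPM, so Lef1 had to differ to be tested and this p is a description. In D2A1 tumors Ephb3 and Wnt9a were lower in BALB/c than in SCID-beige mice, at -0.76 ± 0.16 and -0.92 ± 0.18 (edgeR adjusted p = 0.043 and 0.036), as was Nkd2. At these levels Ephb3 was 15.5 ± 1.59 beside 26.4 ± 3.36 CPM and Wnt9a 21.4 ± 2.09 beside 40.5 ± 8.22 CPM.

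**Figure D5:**
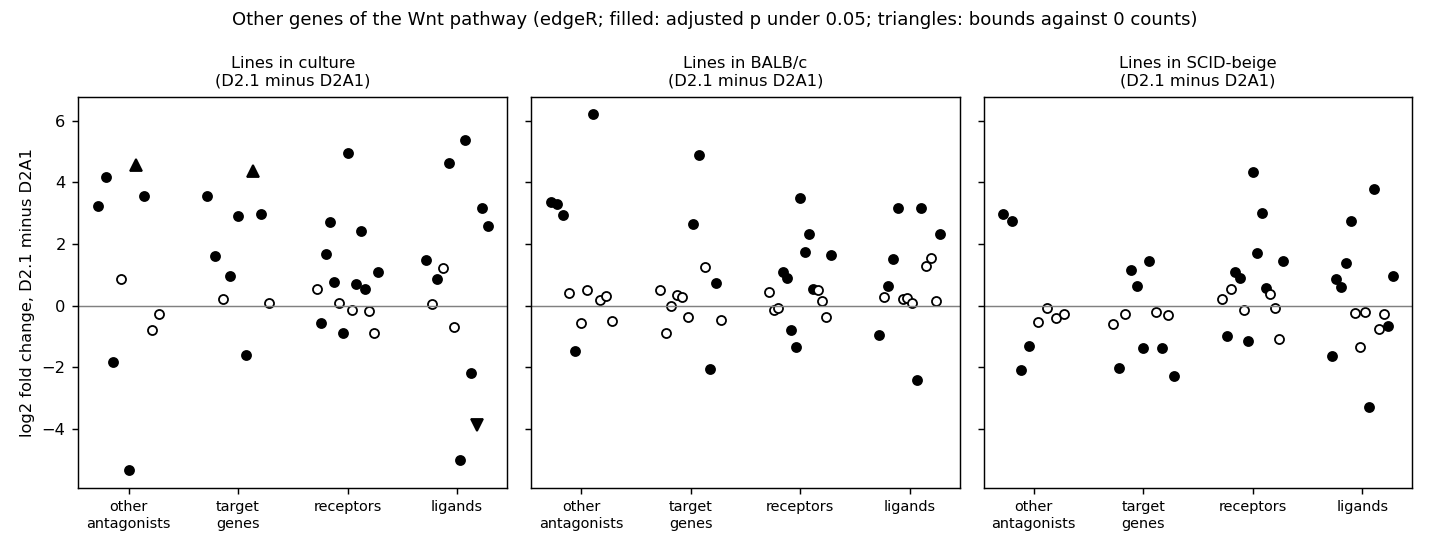
Log2 fold changes between lines (D2.1 minus D2A1) of the tested genes of 4 Wnt lists in culture and in the tumors of both hosts, 1 point per gene, filled where the adjusted p was under 0.05, with triangles for bounds of genes that had 0 counts in 1 line. Each list holds filled points on both sides of 0 in the comparisons shown.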

How the data were processed

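RNA-seq of 24 libraries was analysed, and each library was placed in its group by its sample label. The authors had libraries sequenced by Novogene on an Illumina NovaSeq. The submitters' notes name STAR and mm10, and the counting program, annotation and strand setting are not given in the sources used here. The authors deposited raw counts of reads for each gene, along with FPKM that, in 100% of genes, follow from the counts, the listed gene length and the library total. The culture and tumor tables use different lengths for most genes (24.8% of 19189 agree within 1%), so FPKM were not compared between tables. Identifiers were matched to GENCODE M21, and unmatched ones took up 0.0969% of culture counts and 0.0446% of tumor counts.

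Tests across genes were made in edgeR 4.0.16 under R 4.3.3 (default filter on low counts, TMM, robust quasi-likelihood fit, Benjamini-Hochberg adjusted p under 0.05), with only the groups compared in each fit and all 4 tumor groups for the interaction. The standard error is the log2 fold change divided by the square root of F. The log2 CPM values use a prior count of 2. Exact permutation tests used scipy over all arrangements. Folds against groups without counts are lower bounds against 3 counts per library, and intervals and floors cover counting error only. Counts were simulated with a log2 change of 2 planted in 200 genes, all with a mean of at least 5 CPM. There edgeR recovered 95% to 99% in the comparisons of 2 groups and 84% for the interaction, over 12317 to 15650 genes. Of its calls 3.43% to 7.48% were false, and of those of DESeq2 11.7% to 19.9%. The counts were drawn with dispersions estimated by edgeR, and far fewer genes were changed than were called between the lines. These shares therefore do not rank the 2 tools on the data. Recovery of smaller changes, or of genes under that level such as several members, was not simulated.

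The members and the gene lists were chosen with earlier results of these data known. All members are named, and of each other Wnt list the genes named are the 4 with the largest difference among those called in a comparison of lines, and all those called between hosts. Axin2 in tumors and Myc in culture fall outside that rule. The fibroblast markers named singly (Col1a1, Col1a2, Col3a1, Dcn, Lum, Fap and Thy1) and the epithelial marker Krt14 were picked after their values were seen, as were Axin2 and Myc. Alternatives were DESeq2 1.42.0 and its size factors, no filter, at least 10 counts, the replicate number as a block, one fit of all tumors, deposited FPKM, a prior count of 0.5 and each library left out. Leaving out pairs of libraries was added after seeing the data. Deviations from group means of libraries with the same replicate number correlated at 0.184 to 0.491 in culture and at 0.1004 to 0.4907 between lines in BALB/c mice. Between lines in SCID-beige mice they correlated at -0.1605 to 0.3443. The numbers were taken to pair libraries in culture and between lines in BALB/c mice only. This is an assumption: no label names a shared batch, and correlations of this size do not establish one. The main fits do not use the pairing.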

Additional observations from a re-analysis of the deposited data

Results flagged for a closer look

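Sfrp1 in SCID-beige D2A1 tumors was 8.39 CPM in replicate 1 and 4.25 to 5.13 CPM in the other 4 tumors, a gap of 0.788 of the whole range beside a critical value of 0.71 in Dixon's test. It was the 1 such value among 36 combinations of member and tumor group, and chance alone gives about 1 in 20 groups.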

How the results depend on the processing

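Of 823 combinations of a member, a comparison and an alternative, 788 kept the direction and the side of the threshold. The difference between lines for Dkk3 ranged from 4.80 to 5.11 in BALB/c and 4.07 to 4.77 in SCID-beige tumors on the log2 scale. It was called under each alternative run there and in culture. In culture Dkk3 passed the filter of the main fit only through D2.1, and only a lower bound of the difference can be given. Where same-numbered libraries were assumed to pair (culture, and lines in BALB/c mice), the replicate block changed no member's call. The genes called rose with it from 5602 to 7539 in culture and from 4868 to 7116 between lines in BALB/c tumors. Elsewhere no pairing was assumed, with correlations of deviations of -0.1605 to 0.3443 between lines in SCID-beige mice and down to -0.4407 between hosts in D2A1.

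Counts of genes called between hosts and in the interaction moved with the processing, and the cause was not tested. Among D2.1 tumors 133 genes were called, against 461 by DESeq2, 275 with no filter, 14 with the replicate block, 261 in one fit of all tumors, 11 without BALB/c replicates 1 and 4, 31 without SCID-beige replicates 3 and 4, and 26 to 314 with single libraries left out. Among D2A1 tumors 170 were called, against 569 by DESeq2, 0 with the replicate block and 27 to 172 with single libraries left out. The members called there were 1, against 3 by DESeq2, 2 with no filter, 0 with the replicate block and 0 in one fit of all tumors. For Nkd2 the value was -1.54 with adjusted p = 0.313 with the block. For the interaction 3 genes were called, against 6 with DESeq2 size factors, 105 by DESeq2 (1 member), 7 with no filter and 0 to 12 with single libraries left out. Between lines, leaving out single libraries gave 3 to 4 members in culture and in SCID-beige and 4 to 5 in BALB/c tumors.

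No value that turned direction had been called. Between lines Sfrp1 in BALB/c tumors was -0.17 with the block, -0.87 without D2.1 replicates 1 and 4, and -0.44 to 0.36 with single libraries left out, and Wif1 in SCID-beige tumors was -0.04 to 1.53. Between hosts Kremen1 in D2.1 was -0.03 to 0.18, Dkk3 in D2A1 was 0 to 0.39 and Wif1 in D2A1 was 0.01 with the block. In the interaction Dkk2 was -0.20 with the block and -0.59 to 0.36 with single libraries left out, and Sfrp4 was -0.59 to 0.54.

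Depth limits the members with few counts: without D2.1 replicate 2 or 3 Sfrp2 failed the filter in culture, and Dkk1 could not be tested.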
